A study of Sus scrofa with 28 samples.

Results

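The comparison described here set the caudal lobe of the left lung of 3 swine that had inhaled a low dose of sulfur mustard vapor (60 µg/kg) against the same lobe of 3 swine that had breathed air. Each animal gave 1 caudal array, so 6 of the 28 arrays of the series entered the comparison, chosen by the lobe and exposure in their labels. The arrays were Affymetrix porcine gene arrays hybridized with RNA from whole pieces of lung. All animals were labelled female, were kept in single pens on a standard diet and were fasted before the experiment. They were premedicated, anesthetized, intubated and exposed lying on their backs for 10 min, and tissue was taken 12 h later at euthanasia with pentobarbitone. By the labels the air and low animals differed in the exposure, and both carried the anesthesia, the intubation and the fasting. Animals 28, 29 and 44 breathed air, and animals 31, 32 and 33 received the low dose. The caudal lobes of 3 animals given a medium dose of 100 µg/kg (animals 34, 41 and 42) served to estimate the spread and are quoted beside some values. The labels gave no strain, age or weight, no scan date and no batch, and they did not say which part of the lobe was cut.

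Sulfur mustard is an alkylating blister agent that reacts with DNA, proteins and glutathione. Inhaled vapor first meets the lining of the airways, whose ciliated, secretory and basal cells are the best known targets, and the injury is followed by inflammation, leakage of plasma and fibrin in the airway. Surviving epithelial cells spread over the wound, and the genes known for this state include simple keratins, matricellular proteins and growth factor receptor ligands. The caudal lobe is the large rear lobe of the lung and holds its own large airways, parenchyma and pleura, so an array of it averages over all of these.

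The deposited values were linear signal intensities, 1 per probe set. Median signal ranged from 56.4 to 61.3 over the 6 arrays and the highest signal from 3995 to 5125. The tissue label fitted its markers: surfactant protein C (SFTPC) lay between 2489 and 3077, above 99.6% to 99.9% of probe sets, and the alveolar type 1 receptor AGER and the endothelial PECAM1 were also bright, at 369 to 773 and 1468 to 1756. An index of RNA integrity, which compares control probe sets at the 3′ end of actin and GAPDH with those at the 5′ end as a mean log2 ratio, was 1.90, 1.05 and 0.92 in air animals 28, 29 and 44 and 0.79, 1.35 and 0.63 in low animals 31, 32 and 33, with group means of 1.29 and 0.92. A higher index is read as more degraded RNA, and the caudal array of air animal 28 had the highest index of the 6.

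The low dose and air could not be separated gene by gene in the caudal lobe. With limma, 0 of 23999 probe sets (0.0%) passed a Benjamini-Hochberg adjusted p of 0.05, while 1461 (6.09%) had an unadjusted p under 0.05, 700 of them higher (2.92%) and 761 lower (3.17%). The smallest adjusted p was 0.248, reached by keratin 19 (KRT19) and by a probe set without a gene name, whose mean signal was 43.5 in air and 109 in low. Over the 6765 genes with a symbol, each at its brightest probe set, 185 were higher (2.73%) and 168 lower (2.48%) at an unadjusted p under 0.05, and the median difference was near 0, with 52.4% of genes above 0. The 3 low and 3 air arrays did not overlap for 433 genes that were higher (6.4%) and 358 that were lower (5.29%). The median standard error of a probe set was 0.15 on the log2 scale. This puts the 95% interval of a typical difference at 0.34 to either side, so smaller differences could not be resolved with 3 animals a group. The interval holds for 1 probe set taken alone. Larger differences could also miss the adjusted threshold over all probe sets, as KRT19 did at 1.00 ± 0.12. Without low animal 33 the unadjusted count dropped to 929, and without air animal 28 to 1047. Leaving out air animal 44 gave 1745 and a single probe set past the adjusted threshold, also without a gene name, whose signal was 57.3 and 47.8 in air animals 28 and 29, 0.72 in air animal 44 and at most 4.78 in the low animals.

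All gene values below are descriptions of these 6 animals, since no gene passed the adjusted threshold; the limma adjusted p of every gene named lay at or above 0.248. A difference is low minus air on the log2 scale with its standard error. Whether groups overlap was judged on the quantile-normalized log2 values, and signals are quoted as deposited. Because whole tissue was measured, fewer cells of a type and less RNA per cell cannot be told apart.

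KRT19, a simple epithelial keratin of airway, mesothelial and wound-edge cells, had the smallest p of any named gene. Its signal was 182, 163 and 153 in the air animals and 316, 333 and 383 in the low animals. All 3 low animals lay above all 3 air animals. The difference was 1.00 ± 0.12 (95% interval 0.72 to 1.28, limma adjusted p = 0.248), and it stayed between 0.93 and 1.06 with any 1 animal left out. KRT19 was also higher in the low group in the apical lobe (0.65 ± 0.16) and the median lobe (0.58 ± 0.16). In the medium group's caudal lobes it was 269, 257 and 331, which gives 0.75 ± 0.12 against the same air arrays.

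**Figure D1:**
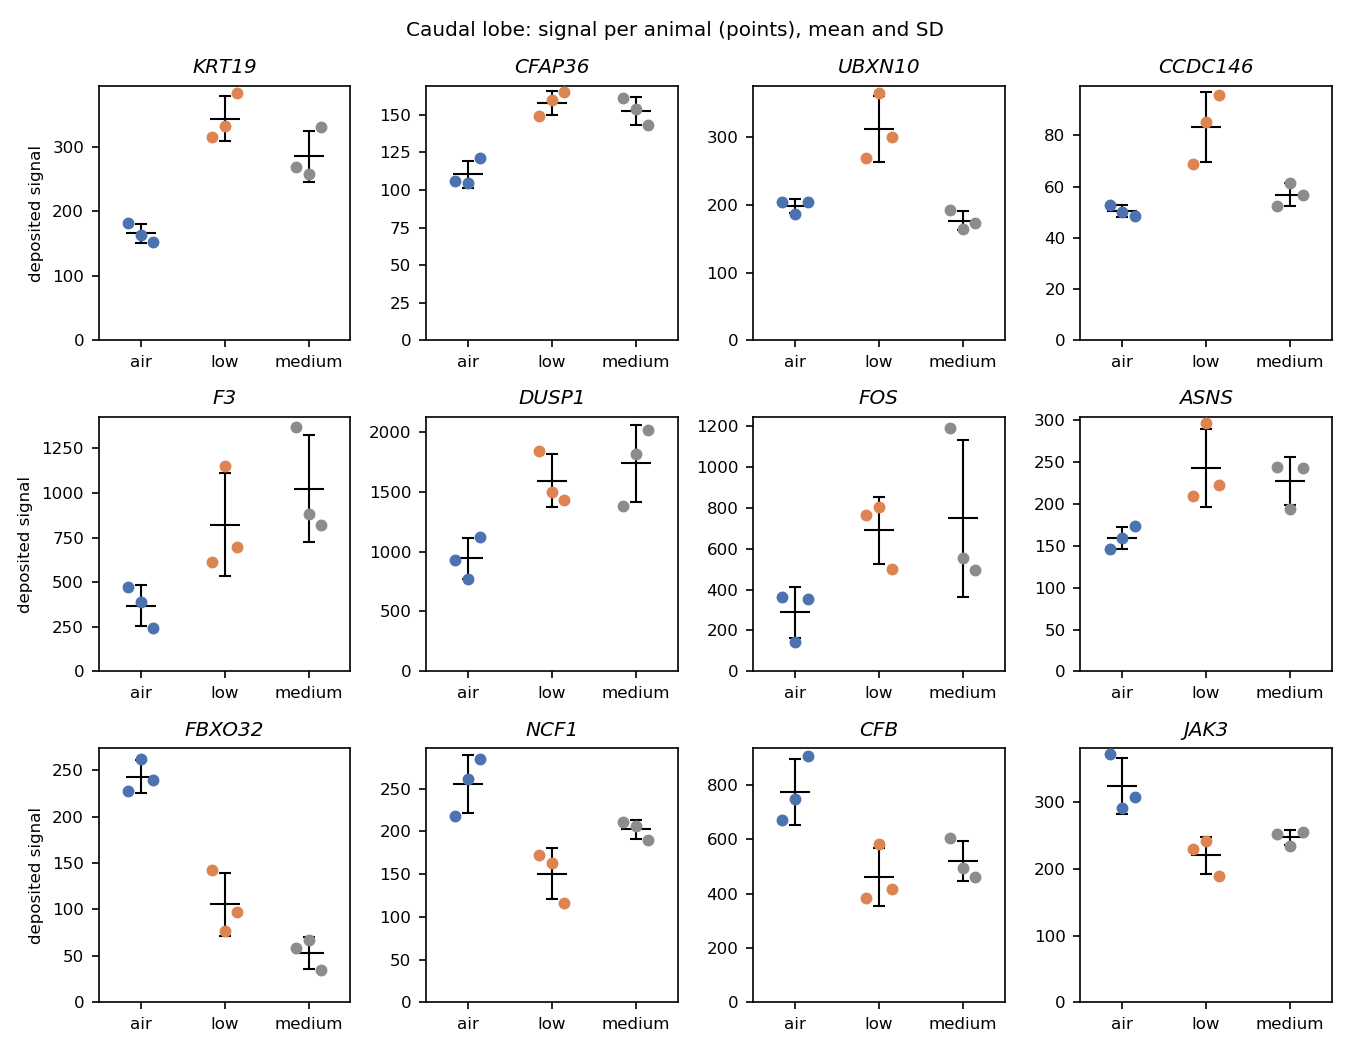
Deposited signal (vertical axis, linear from 0) of 12 genes in each caudal array, with points for single animals and black lines for the mean and SD of the 3 animals in each of air (blue), low (orange) and medium (grey). KRT19 lies between 153 and 182 in air and between 316 and 383 in low. FBXO32 lies between 227 and 262 in air and between 76.8 and 143 in low. The air and low groups do not overlap in any of the 12 panels, but most of these genes were named for a small caudal p.

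The 10 genes with the smallest p on the high side were taken from those with a mean caudal signal of at least 50, and KRT19 was the first of them. These genes, and the 10 on the low side below, were picked by p in this same comparison. That their groups did not overlap is therefore no separate result. UBXN10, which takes part in building cilia, had signals of 204, 186 and 204 in air and 269, 365 and 299 in low. CCDC146, a centriole and axoneme protein, was at 52.9, 50.1 and 48.4 in air and at 68.8, 85.0 and 95.8 in low. CFAP36, a ciliary associated protein, was at 106, 105 and 121 in air and at 149, 160 and 165 in low. In each of these genes every low animal lay above every air animal. The differences were 0.63 ± 0.12 for UBXN10, 0.57 ± 0.11 for CCDC146 and 0.47 ± 0.09 for CFAP36. In the medium group UBXN10 (192, 164 and 173) and CCDC146 (52.4, 61.6 and 56.6) lay near the air level, with differences of -0.14 ± 0.12 and 0.09 ± 0.11, whereas CFAP36 (161, 154 and 143) was at the level of the low group, 0.42 ± 0.09 from air.

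The other 6 genes of that group had varied roles. FGF18, a fibroblast growth factor of lung mesenchyme, was at 48.9, 62.1 and 70.8 in air and 94.2, 91.6 and 102 in low, a difference of 0.55 ± 0.11. The nuclear import receptor IPO5 was at 155, 140 and 166 in air and 211, 216 and 257 in low (0.54 ± 0.11). TMEM138, a membrane protein linked to ciliary traffic, differed by 0.57 ± 0.13. Lower again in size were the heme-binding protein HEBP2 at 0.52 ± 0.13, EFCAB11 at 0.48 ± 0.11 and the mitochondrial lipid phosphatase ACP6 at 0.47 ± 0.11. The 2 groups did not overlap in any of these 6 genes. IPO5 and TMEM138 also differed in the other lobes, by 0.56 and 0.60 in the apical and 0.67 and 0.50 in the median lobe, while FGF18 differed by 0.46 in the apical and 0.06 in the median lobe.

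On the low side, FBXO32 had the smallest p among genes with a mean caudal signal of at least 50. It encodes atrogin-1, a ubiquitin ligase subunit known from muscle wasting and from FOXO and glucocorticoid responses. Signals were 227, 262 and 240 in air and 143, 76.8 and 97.5 in low, with no overlap, a difference of -1.09 ± 0.23 (limma adjusted p = 0.72). A second probe set of the gene gave -0.77. The medium animals were lower still at 58.5, 67.0 and 34.5 (-1.95 ± 0.23 against the same air arrays), and the low group was lower in the apical (-0.88 ± 0.20) and median lobe (-0.82 ± 0.29) too.

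NCF1, a cytosolic subunit of the phagocyte NADPH oxidase, was at 218, 261 and 285 in air and 172, 163 and 117 in low, a difference of -0.70 ± 0.15; its second, dimmer probe set gave 0.24, so the 2 probe sets disagreed. Complement factor B (CFB), part of the alternative complement pathway, was at 670, 749 and 909 in air and 385, 584 and 419 in low (-0.75 ± 0.18), and again a second probe set went the other way at 0.12. JAK3, the kinase of the common gamma chain cytokine receptors in lymphocytes, was at 372, 292 and 308 in air and 229, 241 and 189 in low (-0.51 ± 0.12). None of these 3 genes overlapped between the groups at its brightest probe set. CFB was lower in the apical (-1.09 ± 0.27) and median lobe (-0.69 ± 0.24) as well, JAK3 by -0.41 in both, and NCF1 by -0.18 and -0.39.

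The remaining low-side genes were the clathrin adaptor HIP1R (-0.74 ± 0.19), the RNA-binding protein RBM7 (-0.59 ± 0.17), the junctional plaque protein PKP4 (-0.46 ± 0.12), the oxidoreductase PYROXD1 (-0.44 ± 0.11), ELMOD3 (-0.39 ± 0.09) and the deadenylase CNOT6L (-0.37 ± 0.09). All 6 were separate between groups. ELMOD3 had 2 further probe sets at 0.02 and 0.05, which did not share the direction of the brightest. A gene outside the rule for naming, chosen after its value was seen, was TRPT1, which acts in tRNA splicing. It was dim, at 46.7, 31.7 and 45.9 in air and 12.9, 8.50 and 6.23 in low, and its difference of -1.20 ± 0.18 (limma adjusted p = 0.655) had the smallest p among named genes after KRT19. The ubiquitin ligase MARCH6 and the transcription factor GATA3, also chosen after their values were seen, were higher by 0.82 and 0.84 at a dimmer probe set but differed by -0.20 and -0.11 at their brightest.

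The lists that follow hold genes of 23 pathways and 18 cell types, and each list's count and median stand against 52.4% of all genes above 0, 47.6% below 0 and a median of 0.01. Genes given with values beyond the smallest 2 p-values of a list were chosen after their values were seen. The lists and their members were themselves chosen with earlier results of these data known. Their counts and shares are therefore descriptions and not tests. The list of genes of YAP activity and epithelial wound repair had the highest median, 0.46, with 10 of its 12 measured members above 0. At an unadjusted p under 0.05, 6 members were higher, against 2.73% of all genes, and 5 did not overlap, against 6.4%. None passed the adjusted threshold. The median was 0.28 in the apical and 0.17 in the median lobe, and 0.65 in the medium group's caudal lobes. Without low animal 32 it was 0.33 and without low animal 31 it was 0.57.

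KRT19 and the tight junction claudin CLDN4, at 175, 150 and 145 in air and 249, 288 and 217 in low (0.64 ± 0.19), led this list by p. ANKRD1, a nuclear ankyrin repeat protein and a standard YAP target, was at 130, 259 and 142 in air and 271, 786 and 304 in low. Low animal 32 was far above the others, and the lowest low animal was just above the highest air animal; the difference was 1.19 ± 0.43 and lay between 0.73 and 1.47 with 1 animal left out. TNFRSF12A, the receptor of the cytokine TWEAK, showed the same animal highest, at 87.2, 92.5 and 149 in air and 150, 359 and 198 in low (0.96 ± 0.35). The matricellular protein tenascin C (TNC) was at 206, 246 and 206 in air and 297, 350 and 326 in low (0.56 ± 0.19), with no overlap. CYR61, another secreted matricellular YAP target, overlapped at 557, 481 and 832 in air against 1063, 1131 and 728 in low (0.63 ± 0.24). The partner keratins KRT8 and KRT18 overlapped, with differences of 0.23 ± 0.23 and 0.23 ± 0.26, and low animal 32 was the highest of the 6 animals in both, at 1013 and 397. In the medium group ANKRD1 (2.30 ± 0.43), TNFRSF12A (1.71 ± 0.35) and KRT18 (0.96 ± 0.26) differed by more from the same air arrays.

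The ciliated cell list had the next highest median. Of its 23 genes 8 were measured and all 8 were higher in the low group, with a median of 0.44. At an unadjusted p under 0.05, 3 were higher, against 2.73% of all genes, and 3 did not overlap, against 6.4%. ROPN1L, a radial spoke protein of the axoneme, was at 320, 333 and 236 in air and 385, 519 and 543 in low, a difference of 0.68 ± 0.17. SPA17, a related protein of motile cilia, was at 102, 66.8 and 70.4 in air and 111, 122 and 153 in low (0.62 ± 0.23). TUBB4B, the main beta tubulin of axonemes but expressed in many cells, was at 265, 344 and 563 in air and 622, 611 and 639 in low (0.71 ± 0.27). These 3 were above every air animal in all low animals, although air animal 44 came close in TUBB4B and air animal 28 in SPA17.

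The other 5 members overlapped: the calcium-binding CAPS and CAPSL differed by 0.45 ± 0.26 and 0.42 ± 0.21, the filament protein TEKT1 by 0.33 ± 0.18, the intraflagellar transport protein IFT57 by 0.27 ± 0.17 and TPPP3 by 0.16 ± 0.21. Low animal 31 was the lowest of the low group in 6 of these 8 markers and lay within the air range in CAPS, CAPSL, IFT57 and TPPP3. Without it the list's median was 0.66, and without low animal 32 it was 0.26. The summed signal of the list was 1590 to 1733 in the air animals and 2025 to 2437 in the low animals, and no measured member was near 0, the lowest signal being 31.8 for TEKT1 in air animal 44 among these 6 arrays. The median was 0.17 in the apical lobe, 0.23 in the median lobe and -0.08 in the medium group's caudal lobes. There the members were mixed. SPA17 and TEKT1 each differed by -0.34 from air, while TUBB4B was at 751, 423 and 616, near its level in the low group. With the RNA integrity index as a covariate the low median was 0.52. Whether the share of ciliated cells in the cut piece moved these values was not tested.

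**Figure D2:**
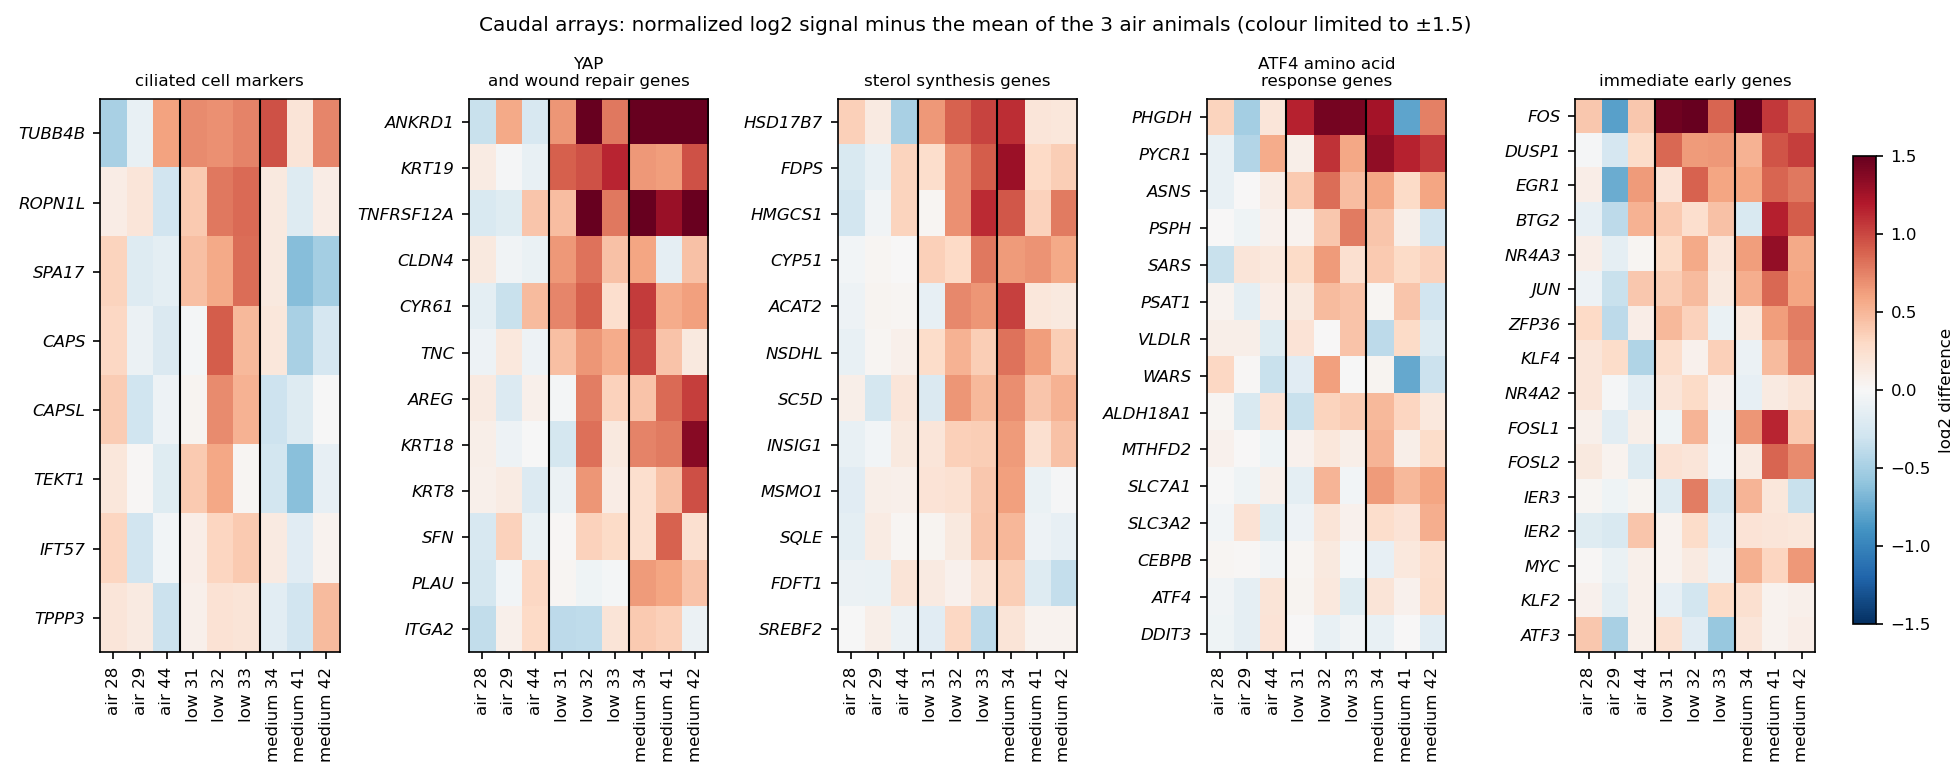
Normalized log2 signal minus the mean of the 3 air animals (colour, limited to 1.5 on either side of 0) for every measured member of 5 lists (rows) in the 9 caudal arrays (columns: air, low and medium, split by black lines). Within the low group, the column of animal 31 is paler than those of animals 32 and 33 for most ciliated and sterol synthesis genes, and the medium columns are pale or blue for SPA17 and TEKT1 and dark red for ANKRD1.

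Markers of secretory and basal airway cells gave a smaller median, 0.23, with 8 of 10 measured members above 0, and it rested on few genes. KRT19 and CLDN4, already described in the YAP and wound repair list, were the only 2 with an unadjusted p under 0.05. Of all genes 2.73% were higher at that p. The groups did not overlap for 2 members that were higher, against 6.4% of all genes, and 1 that was lower, against 5.29%. The secreted trefoil peptide TFF3 was at 1133, 533 and 1600 in air and 1402, 1597 and 1440 in low (0.54 ± 0.33), overlapping, while the mucin MUC1 was at 159, 178 and 170 in air and 118, 145 and 140 in low (-0.29 ± 0.18), without overlap. Without air animal 44 the list's median was 0.05. Its summed signal was 5201 to 6686 in air and 6162 to 7660 in low.

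**Figure D3:**
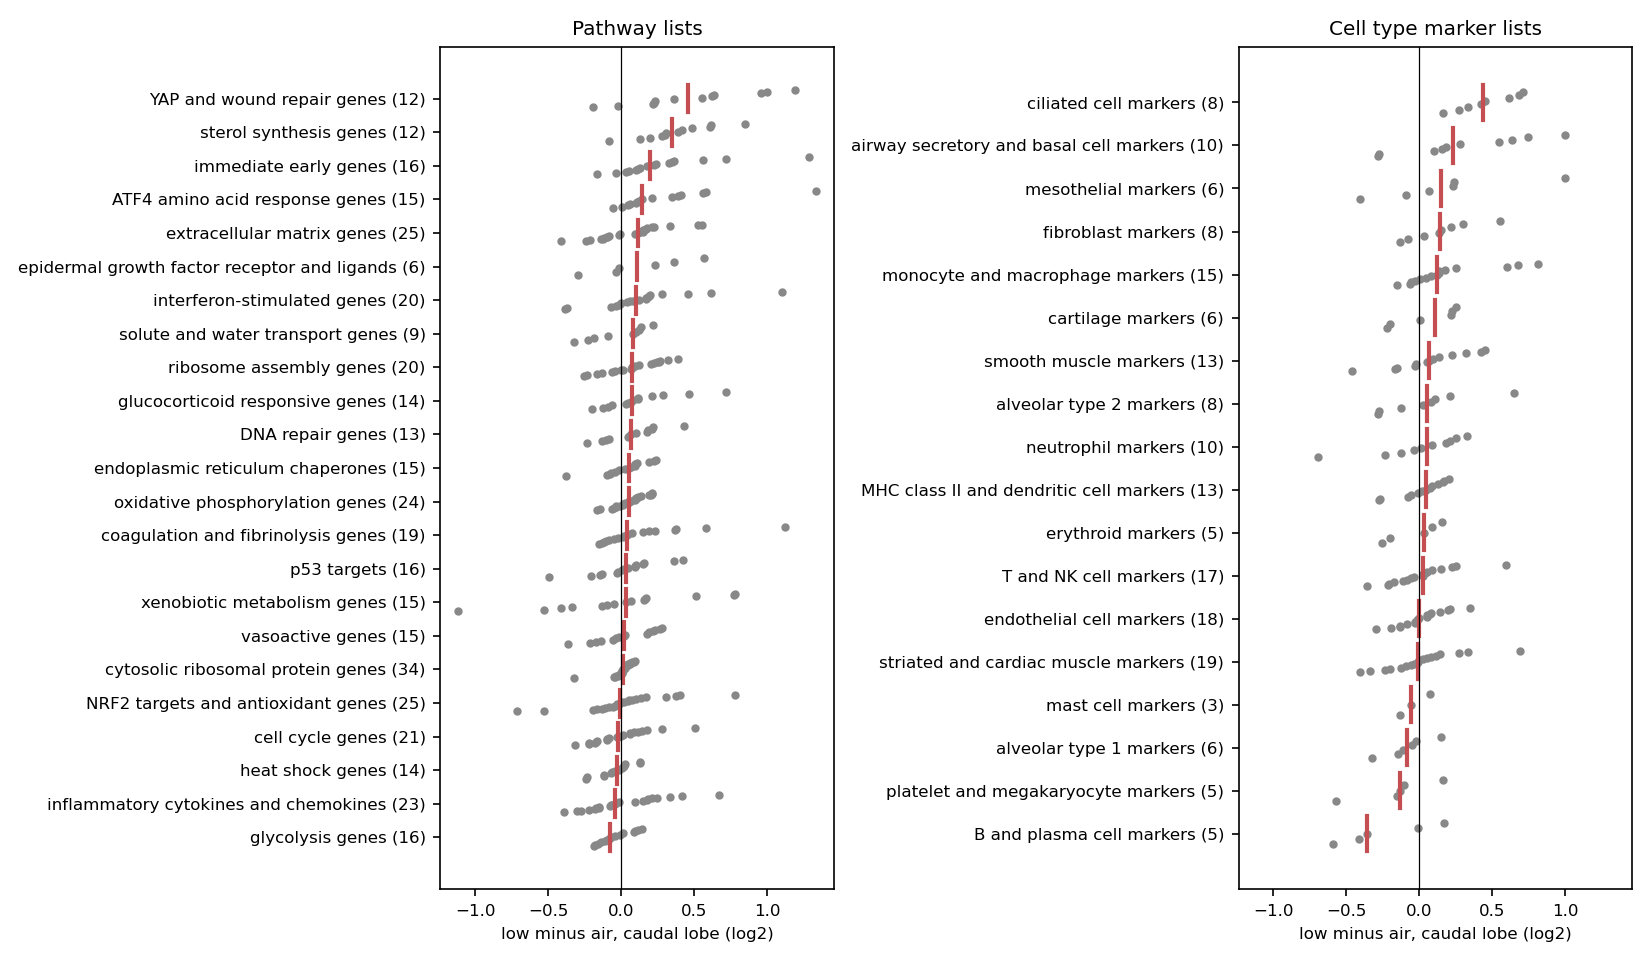
Low minus air difference in the caudal lobe (horizontal axis, log2) of every measured member (grey points) of the pathway lists (left panel) and the cell type marker lists (right panel), with the list's median as a red bar and the number of measured members in parentheses. The YAP and wound repair genes (median 0.46) and the ciliated cell markers (0.44) lie highest and the B and plasma cell markers (-0.36) lowest.

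Immediate early genes, which encode transcription factors and signal regulators induced within minutes of stress or growth signals, had a median of 0.20, and 14 of 16 were above 0. With the RNA index as a covariate the median was 0.31. With 1 animal left out it ranged from 0.15, without air animal 29, to 0.28, without air animal 28. The AP-1 subunit FOS was at 366, 145 and 355 in air and 764, 804 and 502 in low, every low animal above every air animal, a difference of 1.29 ± 0.40. DUSP1, a phosphatase that switches off MAP kinases and is also induced by glucocorticoids, was at 933, 775 and 1120 in air and 1841, 1498 and 1431 in low (0.72 ± 0.17). Of the rest only NR4A3 was separate, at 37.1, 32.3 and 39.9 in air and 47.0, 62.0 and 43.3 in low (0.35 ± 0.20). In all 3 of the 16 members did not overlap, against 6.4% of all genes. At an unadjusted p under 0.05, 2 were higher, against 2.73%. EGR1 (0.56 ± 0.31) and JUN (0.33 ± 0.19) overlapped. In the medium group the list's median was 0.55 against the same air arrays. Glucocorticoid responsive genes had a median of 0.07 with 10 of 14 above 0, and the median was -0.02 without air animal 44 and 0.24 when the RNA index was fitted. KLF9, a glucocorticoid-induced transcription factor, was at 484, 425 and 407 in air and 684, 614 and 561 in low, but the medium animals at 378, 1246 and 1458 widened the shared spread, and the difference was 0.47 ± 0.41.

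Tissue factor (F3), the cell-surface starter of the clotting cascade, was at 471, 388 and 244 in air and 615, 1150 and 698 in low. No low animal overlapped the air range, and low animal 32 was the highest. The difference was 1.13 ± 0.30 (limma adjusted p = 0.756), it ranged from 0.85 to 1.32 with 1 animal left out, and it compared with 0.38 ± 0.28 in the apical and 0.47 ± 0.28 in the median lobe. The medium animals stood at 1369, 884 and 819 (1.48 ± 0.30). The other 18 coagulation and fibrinolysis genes had no member with an unadjusted p under 0.05. Of all genes 2.73% were higher and 2.48% lower at that p. The next by p, the protein C receptor PROCR, was at 99.0, 93.1 and 154 in air and 123, 130 and 331 in low (0.58 ± 0.33), a difference that was 0.16 without low animal 33. The list's median was 0.04.

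Of the epidermal growth factor receptor and its ligands, transforming growth factor alpha (TGFA) was dim but separate, at 9.08, 19.8 and 20.1 in air and 25.3, 36.8 and 33.6 in low (0.57 ± 0.15). The receptor EGFR overlapped and was lower by mean, at 293, 229 and 215 in air and 158, 239 and 189 in low (-0.29 ± 0.17). Amphiregulin (AREG), another ligand, lay near the bottom of the scale, with a highest air signal of 4.39 and a highest low signal of 17.8 in animal 32. The 6 measured members had a median of 0.11.

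Genes of sterol synthesis, the pathway from acetyl-CoA to cholesterol under the control of SREBP2, were above 0 in 11 of 12 cases, with a median of 0.35. An unadjusted p under 0.05 was reached by 4 members, against 2.73% of all genes on the high side, and 5 did not overlap, against 6.4%. The lanosterol demethylase CYP51 was at 487, 504 and 496 in air and 647, 617 and 874 in low (0.48 ± 0.13). HSD17B7, a ketosteroid reductase of the pathway, was at 65.8, 56.3 and 32.2 in air and 86.4, 106 and 118 in low (0.85 ± 0.29). NSDHL, which acts at the same stage, differed by 0.39 ± 0.13 and INSIG1, the sterol-sensing retention protein that is itself a target of the pathway, by 0.30 ± 0.13. The early enzymes HMGCS1 (0.61 ± 0.28) and FDPS (0.62 ± 0.28) had larger differences but overlapped. In HMGCS1 the order of the low animals was 269 in animal 31, 438 in animal 32 and 605 in animal 33, and the air animals reached 336. The list's median was 0.30 in the median lobe, 0.11 in the apical lobe and 0.47 in the medium group's caudal lobes.

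The amino acid response genes driven by ATF4 were above 0 in 14 of 15 cases, with a median of 0.14. Their median was 0.21 in the apical and 0.19 in the median lobe. An unadjusted p under 0.05 was reached by 3, against 2.73% of all genes on the high side, and 5 did not overlap, against 6.4%. Those 3 were enzymes of amino acid supply and charging. Asparagine synthetase (ASNS) was at 146, 159 and 173 in air and 210, 297 and 223 in low (0.56 ± 0.15). PHGDH, the first enzyme of serine synthesis, was at 30.3, 12.2 and 30.5 in air and 70.8, 91.8 and 91.2 in low (1.34 ± 0.45). The seryl-tRNA synthetase gene SARS was at 443, 629 and 605 in air and 687, 869 and 664 in low (0.39 ± 0.16). All 3 were separate between groups, as were the serine enzyme PSAT1 (0.35 ± 0.18) and, after normalization, MTHFD2. PSPH (0.41 ± 0.21) and the proline enzyme PYCR1 (0.58 ± 0.29) overlapped. ATF4 itself differed by 0.01 and its partner DDIT3 by -0.05. Without low animal 32 the list's median was 0.08, without low animal 31 it was 0.30, and with the RNA index as a covariate it was 0.26.

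Inflammatory cytokines and chemokines lay around 0 in the caudal lobe, with a median of -0.04 and 9 of 23 members above 0. No member had an unadjusted p under 0.05, against 2.73% of all genes that were higher and 2.48% that were lower. The groups did not overlap for 2 members that were higher, against 6.4% of all genes, and 2 that were lower, against 5.29%. Interleukin 8 (CXCL8), the main neutrophil chemokine, was at 96.7, 65.3 and 50.3 in air and 53.2, 62.1 and 42.8 in low (-0.27 ± 0.25, 95% interval -0.84 to 0.30). IL1B differed by -0.17 ± 0.14, and a dimmer probe set of it by -0.69. IL6 was near the bottom of the scale at 14.9, 19.8 and 20.4 in air and 19.96, 23.0 and 24.6 in low (0.15 ± 0.11), and it was separate after normalization. The 2 members with the smallest p pointed in opposite directions: tumor necrosis factor (TNF) at -0.39 ± 0.19 and the neutrophil chemokine CXCL2 at 0.67 ± 0.36, the latter at 125, 47.5 and 60.7 in air and 101, 196 and 92.6 in low, overlapping.

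Interferon-stimulated genes overlapped between the groups in all 20 measured members. Of all genes 6.4% were separate and higher and 5.29% separate and lower. At an unadjusted p under 0.05, 1 member was higher, against 2.73% of all genes. The list's median was 0.10, and it was 0.29 without air animal 28, 0.01 without air animal 44 and 0.20 with the RNA index as a covariate. The antiviral enzyme OAS1 was at 124, 346 and 123 in air and 611, 288 and 354 in low (1.11 ± 0.45), with air animal 29 inside the low range. MX1 and ISG15 had their highest air value in animal 28 instead, at 447 and 534. IRF1, a transcription factor of the pathway, was lower by mean (-0.38 ± 0.18).

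Markers of immune cells showed no common direction. The neutrophil list had a median of 0.05, with NCF1 low and the calgranulin S100A12 at 122, 186 and 126 in air and 160, 159 and 194 in low (0.25 ± 0.16). Its summed signal was 1838 to 2684 in air and 2029 to 2116 in low. Among 15 monocyte and macrophage markers, 11 were above 0 with a median of 0.12, which was -0.06 without air animal 28 or with the RNA index as a covariate, -0.04 without low animal 31 and 0.25 without low animal 32. The lipopolysaccharide co-receptor CD14 was at 22.2, 48.2 and 63.2 in air and 87.9, 55.8 and 132 in low (0.81 ± 0.31), and the Fc receptor FCGR1A at 56.4, 88.7 and 98.6 in air and 141, 92.7 and 196 in low (0.68 ± 0.28). Both overlapped through low animal 32, and a dimmer CD14 probe set gave -0.01. T and NK cell markers had a median of 0.03, with 9 of 17 measured members above 0 and 8 below. That median was -0.09 without low animal 33 and 0.07 without air animal 44. The NK receptor KLRK1 (0.59 ± 0.33) and the T cell receptor chain CD3G (0.25 ± 0.17) led by p.

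The 5 measured B and plasma cell markers had the lowest median of all lists, -0.36, and 4 of them were below 0. Among probe sets at or above the median brightness only JCHAIN, CD40 and SDC1 were left, and their median was -0.0088. JCHAIN, which joins secreted IgA and IgM, was at 2082, 1972 and 1629 in air and 1656, 1543 and 1323 in low (-0.36 ± 0.11). In the deposited signals low animal 31 lay above air animal 44, so the groups overlapped there, and after normalization they were separate. The plasma cell receptor TNFRSF17 was at 63.2, 61.4 and 77.7 in air and 54.0, 39.9 and 44.7 in low (-0.42 ± 0.25), and the B cell receptor component CD79B overlapped (-0.59 ± 0.29). The summed signal of the list, mostly JCHAIN, was 2303 to 2790 in air and 1952 to 2432 in low. JCHAIN differed by -0.15 in the apical, -0.17 in the median lobe and -0.42 in the medium group's caudal lobes.

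Genes of the DNA damage response, which follows alkylation, lay near 0 in the low group. The p53 targets had a median of 0.03 with 10 of 16 above 0. The cell cycle inhibitor CDKN1A was at 181, 148 and 125 in air and 221, 225 and 171 in low (0.42 ± 0.24), overlapping through animals 28 and 33, while the medium animals reached 221, 438 and 276 (0.95 ± 0.24). GADD45A differed by 0.16 ± 0.15 and PMAIP1 by 0.15 ± 0.25. DDB2, a sensor of DNA lesions, had the smallest p of the list and was lower, at 52.0, 61.4 and 43.0 in air and 35.6, 44.2 and 18.9 in low (-0.49 ± 0.20). Of 13 DNA repair genes only RAD50, a subunit of the break-sensing MRN complex, had an unadjusted p under 0.05. Of all genes 2.73% were higher and 2.48% lower at that p. RAD50 was at 329, 302 and 294 in air and 353, 353 and 363 in low (0.22 ± 0.09). The dim BRCA1 was next at 0.43 ± 0.27.

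Antioxidant genes and NRF2 targets divided evenly, 11 above and 14 below 0. Heme oxygenase (HMOX1), the most used marker of this response, was at 1038, 758 and 1126 in air and 1193, 684 and 846 in low (-0.16 ± 0.21). Malic enzyme (ME1), which supplies NADPH, was separate at 55.2, 48.2 and 42.4 in air and 75.6, 59.3 and 67.3 in low (0.37 ± 0.15), and the extracellular superoxide dismutase SOD3 was lower at 54.6, 34.7 and 83.6 in air and 34.6, 21.4 and 26.9 in low (-0.71 ± 0.30), where air animal 29 and low animal 31 had the same level. In the xenobiotic metabolism list, with a median of 0.03, the glutathione transferase GSTO1 was at 379, 555 and 576 in air and 646, 686 and 843 in low (0.52 ± 0.18). The dim cytochrome CYP3A29 was at 20.3, 37.1 and 99.2 in air and 11.3, 8.60 and 17.98 in low (-1.12 ± 0.40).

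Alveolar genes lay close to air. SFTPC was at 3019, 2489 and 3077 in air and 3061, 2932 and 2551 in low (0.03 ± 0.09, 95% interval -0.19 to 0.24). Surfactant protein B (SFTPB) spread from 139 in air animal 28 to 742 in low animal 33, a difference of 0.65 ± 0.46 that was 0.04 without air animal 28. The alveolar type 2 regulator ETV5 was separate and lower, at 282, 265 and 298 in air and 255, 226 and 203 in low (-0.28 ± 0.12). Alveolar type 1 markers were below 0 in 5 of 6 cases with a median of -0.08, led by the water channel AQP5 (-0.32 ± 0.17) and by CAV2 (-0.14 ± 0.13). AQP5 also led the list of solute and water transport genes, followed by AQP3 (0.22 ± 0.20), and that list's median was 0.08.

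Cell types of the vessel wall and stroma gave medians of -0.01 for 18 endothelial, 0.07 for 13 smooth muscle and 0.14 for 8 fibroblast markers. Below 0 were 9 of the endothelial, 5 of the smooth muscle and 2 of the fibroblast markers, although the members named next were all higher. Of all genes 2.73% were higher at an unadjusted p under 0.05. The endothelial receptor FLT1 (0.35 ± 0.13) and the contractile light chain MYL9 (0.32 ± 0.13) had an unadjusted p under 0.05, while ICAM2 (0.14 ± 0.12), the smooth muscle actin ACTG2 (0.45 ± 0.21) and the fibroblast genes FBLN1 (0.30 ± 0.16) and MFAP5 (0.56 ± 0.32) did not. In the extracellular matrix list, with a median of 0.12, TNC was followed by COL5A1 (0.34 ± 0.16). Among vasoactive genes (median 0.02) the dim nitric oxide synthase NOS2 was at 18.2, 25.4 and 26.0 in air and 19.5, 14.2 and 11.7 in low (-0.36 ± 0.14), and the endothelial NOS3 differed by 0.22 ± 0.12.

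Marker lists with 3 to 6 measured members can say little. Mast cell markers had a median of -0.06, with GATA2 at 0.08 ± 0.23 and MS4A2 at -0.06 ± 0.18. Erythroid markers had a median of 0.03, with the globins HBB at 0.16 ± 0.15 and HBE1 at -0.20 ± 0.27. Platelet markers had a median of -0.13, where PPBP (-0.57 ± 0.39) turned on air animal 29 at 607 and was -0.05 without it, and ITGB3 differed by 0.16 ± 0.13. Mesothelial markers (0.15) shared KRT19, KRT8 and KRT18 with the YAP and wound repair list and included a dim CALB2 that was lower (-0.41 ± 0.14). Their median was -0.05 without low animal 32 and 0.28 without low animal 31. Cartilage markers had a median of 0.11, all were dim, and COL11A1 (0.25 ± 0.18) and COL2A1 (-0.22 ± 0.22) led by p. Striated and cardiac muscle markers, 14 of 19 dim, had a median of -0.01, with the troponin TNNI3 at 0.69 ± 0.29 and the actin ACTC1 at -0.41 ± 0.19. Dendritic cell and MHC class II markers had a median of 0.05, led by SLA-DOA (-0.27 ± 0.17) and CD83 (-0.27 ± 0.18).

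Housekeeping functions were close to air. The 34 cytosolic ribosomal protein genes had a median of 0.02 (RPL8 at 0.09 ± 0.09, the dim RPL30 at -0.33 ± 0.28), glycolysis genes -0.07 (PFKM at -0.19 ± 0.12 and PFKL at -0.16 ± 0.13) and heat shock genes -0.03 (HSP90AB1 at -0.11 ± 0.10 and DNAJA1 at 0.13 ± 0.12). Oxidative phosphorylation genes were above 0 in 17 of 24 cases with a median of 0.05. None of the 24 had an unadjusted p under 0.05, against 2.73% of all genes that were higher and 2.48% that were lower. The groups did not overlap for 4 that were higher, against 6.4% of all genes. Among them were the complex I subunits NDUFA9 at 321, 309 and 320 in air against 370, 349 and 375 in low (0.21 ± 0.10) and NDUFB5 (0.21 ± 0.11). Ribosome assembly genes had a median of 0.08. Of the 20 measured, the pseudouridine synthase DKC1 (0.32 ± 0.14) and the nucleolar NOP58 (0.27 ± 0.12) were higher at an unadjusted p under 0.05, against 2.73% of all genes. Among endoplasmic reticulum chaperones (median 0.06) calreticulin (CALR) was lower at 356, 266 and 279 in air and 198, 229 and 242 in low (-0.38 ± 0.14), and MANF differed by 0.24 ± 0.19. Cell cycle genes had a median of -0.02, with cyclin D2 (CCND2) at -0.32 ± 0.13 and the mitotic kinase AURKB at -0.22 ± 0.14.

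The lobes were compared to see whether the low-dose difference was of another size in the caudal lobe than in the apical and median lobes of the same animals. With the animal as a paired replicate block in limma, 0 of 23999 probe sets (0.0%) passed an adjusted p of 0.05 and 968 (4.03%) had an unadjusted p under 0.05. Without the replicate block 0 passed and 368 had an unadjusted p under 0.05, and with the animal as a random replicate block the numbers were 0 and 871. Of the 6765 genes, 112 (1.66%) had a higher and 93 (1.37%) a lower caudal difference at an unadjusted p under 0.05.

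UBXN10 had the smallest p of this contrast on the high side: its low minus air difference was 0.63 ± 0.12 in the caudal, 0.07 ± 0.17 in the apical and -0.01 ± 0.20 in the median lobe, and the caudal difference exceeded the mean of the others by 0.59 ± 0.13 (limma adjusted p = 0.999). FAM216B, at 194, 144 and 132 in air and 205, 282 and 257 in low, exceeded them by 0.44 ± 0.11, LRRC51 by 0.52 ± 0.13, EFL1, which acts in ribosome maturation, by 0.32 ± 0.09 and the melanocortin receptor accessory protein MRAP by 0.63 ± 0.17. In MRAP the caudal signals themselves overlapped widely, from 4.86 to 59.4 in air and 14.03 to 58.9 in low. For genes already named because of their caudal values the contrast is raised by that choice, and it is given as a description: 0.52 ± 0.17 for CCDC146, 1.14 ± 0.37 for PHGDH, 0.43 ± 0.13 for TGFA, 1.20 ± 0.53 for ANKRD1 and 0.38 ± 0.15 for KRT19. The same holds for UBXN10. ANKRD1 differed by -0.04 in the apical and 0.02 in the median lobe.

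On the low side of this contrast were the secretory pathway protein TMED7 (-0.34 ± 0.10), RASSF4 (-0.34 ± 0.10), the ectoenzyme CD38 (-0.47 ± 0.14), the muscle filament desmin (DES, -0.50 ± 0.15) and DCAF11 (-0.39 ± 0.13). In the caudal lobe itself each of these overlapped between low and air after normalization. In the deposited signals DES did not overlap, at 384, 411 and 547 in air and 382, 323 and 253 in low. CALR, named for its caudal value, was at -0.38 in the caudal lobe against 0.24 in the apical and 0.11 in the median lobe, a contrast of -0.55 ± 0.22, and DDB2, named in the same way, had a contrast of -0.58 ± 0.17. Beside these, the named genes IPO5 (-0.08 ± 0.18), TMEM138 (0.02 ± 0.10) and FBXO32 (-0.24 ± 0.23) had contrasts within about 1 standard error of 0.

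**Figure D4:**
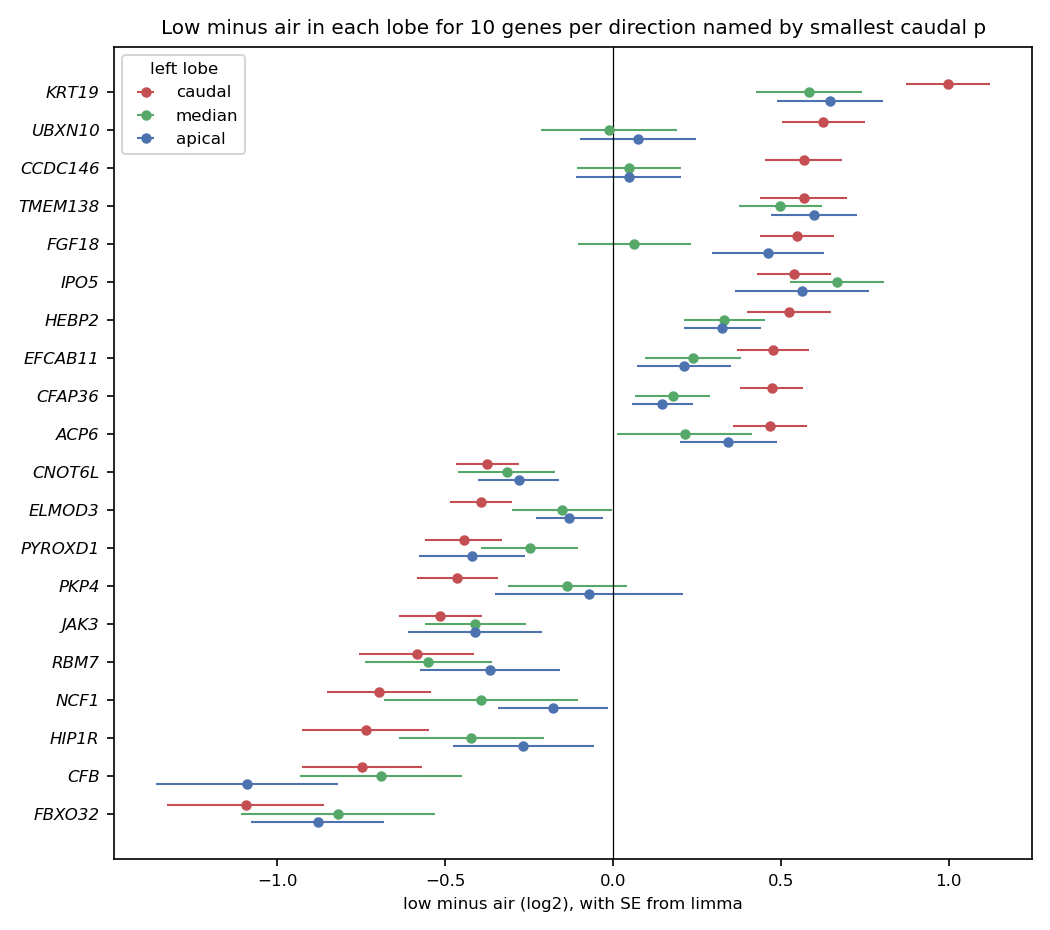
Low minus air difference (horizontal axis, log2) with its standard error from limma in the caudal (red), median (green) and apical (blue) left lobe for the 10 genes in each direction with the smallest p in the caudal lobe and a mean signal of at least 50, ordered by the caudal difference. UBXN10 and CCDC146 lie at 0.63 and 0.57 in the caudal lobe and between -0.01 and 0.07 in the others, while IPO5, TMEM138 and FBXO32 lie close together in the 3 lobes. The genes were chosen on the caudal values.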

How the data were processed

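The authors deposited 1 table of linear signal intensity for all arrays, per the file header; the mean of each column, trimmed by 2% at each end, was about 150. The summarization software is not given in the sources used here. Of 24123 probe sets 124 controls were left out and 23999 were used without a brightness filter. The supplied platform annotation gave 1 symbol for 10069, several for 198 and none for 13732, covering 6765 symbols; a gene is its brightest probe set over the 28 arrays. Signals were taken as log2(signal + 16) and quantile normalized over 28 arrays. Tests used limma 3.58.1 (lmFit, eBayes) in R 4.3.3 on the 9 caudal arrays, with Benjamini-Hochberg adjustment over all probe sets and calls at 0.05; code was tested on simulated data. The lobe contrast used all 28 arrays with the animal as a block, since the animal number pairs the lobes; duplicateCorrelation gave 0.344 between them. Figures used Python 3.11.15. Genes were named by a rule: 10 in each direction with the smallest p and a mean signal of at least 50, the 2 members of each list with the smallest p, 11 fixed genes, and 5 in each direction for the lobe contrast. The members and lists were chosen with earlier results of these data known. The number of arrays limits the precision.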

Additional observations from a re-analysis of the deposited data

How the results depend on the processing

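The count of probe sets past the adjusted threshold in the caudal comparison was 0 under every other normalization, offset, brightness filter, set of fitted arrays and covariate tried, and it ranged from 0 to 1 when 1 animal was left out. The unadjusted count was 1287 with the RNA integrity index as a covariate, 1336 on the deposited scaling, 1735 with the air and low arrays alone and 728 among the brighter 12000 probe sets, where fewer were tested. The paired lobe contrast gave 0 under every setting, with or without the replicate block. Of 2013 values of named genes under other settings, 2001 kept their direction, 12 turned and 0 passed the threshold. With all probe sets of a gene averaged, DNAJA1 turned to -0.10, MS4A2 to 0.18, MARCH6 to 0.14 and GATA3 to 0.27. SFTPC was -0.0048 on the deposited scaling and PMAIP1 -0.0376 with the RNA index as a covariate. With 1 animal left out, GATA2 ranged from -0.0690 to 0.22, MS4A2 from -0.14 to 0.0903, HMOX1 from -0.36 to 0.0074, SFTPC from -0.0350 to 0.0829 and KRT18 from -0.0617 to 0.49. The median of 24 of the 41 lists changed sign under at least 1 of 15 settings, and each of these medians was at most 0.15 in size. The cause was not tested.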
